A study of Callithrix jacchus with 39 samples.

Results

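The SLC25 family of mitochondrial carriers was followed through marmoset pluripotent cells and early embryos. Its members were taken as every gene of the deposited count table whose marmoset symbol begins with SLC25A and a number, which gave 33 genes out of 30811 gene IDs. Symbols were attached to 12660 of the IDs (41.1%), so carriers whose ID had no symbol were not analysed here. Family members that go by other symbols, such as the uncoupling protein UCP3, are outside these 33 genes. The ADP/ATP carriers SLC25A4, SLC25A5, SLC25A6 and SLC25A31 were among the symbols that were not matched, and their isoform balance is therefore not described. Expression is given as CPM, the counts of a gene per M (mega) counts of its library, with library sizes scaled by the trimmed mean of M-values (TMM) over all 39 libraries. The CPM values are not corrected for transcript length, so a level is compared between samples for 1 gene and never between genes.

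The animal was the common marmoset (Callithrix jacchus), whose poly(A)+ RNA was sequenced in 13 groups of 3 libraries. Embryonic stem cells (ESCs) made up 6 groups: naive DSY-c2 cells whose titles carry TgON, primed DSY-c2 cells with Tg, naive N40 cells with TgOFF, primed N40 cells with Tg, and the primed lines DSY127 and No.40, whose titles carry no Tg. The labels do not define Tg, and within each line the naive label and the TgON or TgOFF label cannot be told apart. The other 7 groups were embryo stages: morulae, 5 stages of the blastocyst's inner cell mass (ICM), labelled early, blastocyst, expanded, hatching and hatched, and postimplantation epiblast. The labels give no ages, and do not say whether libraries of 1 group are from different cultures or embryos, or from pools. The p-values therefore measure only how far these libraries differ, and that spread may be technical.

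SLC25 carriers are small proteins of the inner mitochondrial membrane, a few of them found in other organelles, that exchange metabolites, nucleotides and cofactors between the cytosol and the matrix. Each transports a narrow set of substrates, and some substrates have several carriers encoded by different genes. Naive and primed pluripotent cells, which correspond to the embryo before and after implantation, are known in mouse and human to differ in their balance of respiration and glycolysis.

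Depth was 38.8 to 78.7 M counts in ESC libraries and 45.3 to 59.04 M counts in embryo libraries. The ESC libraries had 15613 to 16722 genes with at least 10 counts, and the embryo libraries 11604 to 15076. Pluripotency genes were detected in all 13 groups, except that LIN28A was at 0 in the early, blastocyst and expanded ICM. The primed library DSY-c2 replicate 4 stood apart by its mesoderm genes, which summed to 277 CPM against 47.5 and 48.6 CPM in replicates 2 and 5. It also stood apart by its primitive endoderm genes, which summed to 1994 CPM against 913 and 811 CPM. Among these, GATA6 had 157 CPM against 11.8 and 7.76 CPM, and PDGFRA 251 CPM against 17.5 and 16.2 CPM. The hatched ICM library replicate 1 had 630 CPM of pluripotency genes, 1438 CPM of trophectoderm genes and 6445 CPM of primitive endoderm genes, while the other 14 ICM libraries had 1785 to 5108 CPM of pluripotency genes. The 6 fibroblast genes measured, of 7 listed, summed to 73.3 to 478 CPM in naive cells, 323 to 2214 CPM in primed cells, 0 to 31.7 CPM in morula and ICM and 1493 to 1704 CPM in epiblast, and 3 or 4 of them, DCN always among these, were at 0 throughout each morula or ICM stage. Within DSY-c2 and within N40, COL1A1 and PDGFRB were lower in naive cells, but COL3A1 was higher. COL3A1 had 43.8, 37.1 and 12.3 CPM in naive and 1.21, 7.525 and 0.957 CPM in primed DSY-c2 libraries. In N40 it had 145, 38.5 and 40.55 CPM in naive and 0.226, 0.508 and 0.325 CPM in primed libraries. COL1A2 and POSTN were also higher in naive N40 libraries, while POSTN was lower in naive DSY-c2 ones. The 5 mesoderm genes summed to 2.53 to 4.44 CPM in naive cells and 6.53 to 277 CPM in primed cells. The 5 trophectoderm genes measured, of 9, summed to 73.1 to 234 CPM in naive cells and 54.3 to 159 CPM in primed cells. Within N40 their sum was higher in naive libraries, at 129, 101 and 133 CPM against 62.1, 58.0 and 55.0 CPM. Within DSY-c2 it overlapped. The 7 primitive endoderm genes measured, of 8, summed to 183 to 589.7 CPM in naive cells and 811 to 2604 CPM in primed cells. In primed libraries most of this sum was COL4A1, at 766 to 2314 CPM, against 61.8 to 389 CPM in naive ones. HNF4A and GATA4 went the other way. HNF4A had 55.1 to 165 CPM in naive and 0.117 to 44.8 CPM in primed libraries, and GATA4 17.4 to 22.5 and 2.94 to 14.1 CPM. For the rest of these genes naive and primed libraries overlapped over all lines. Within N40, GATA6 had 38.4, 16.5 and 17.5 CPM in naive and 0.101, 0.0521 and 0.0271 CPM in primed libraries. APOA1 was instead lower in naive N40 libraries, at 2.22, 0.561 and 0.718 CPM against 4.69, 5.29 and 3.997 CPM. Within DSY-c2 both overlapped, while PDGFRA was lower in naive libraries, at 6.99, 11.96 and 8.99 CPM. PDGFRA overlapped within N40, and FOXA2 within each of these lines. The 3 neural genes measured, of 4, summed to 0.759 to 1.04 CPM in naive cells and 15.1 to 38.1 CPM in primed cells. In primed libraries nearly all of this sum was NCAM1, at 14.3 to 36.9 CPM, against 0.235 to 0.573 CPM in naive ones. PAX6 and NEUROG2 overlapped between naive and primed libraries over all lines. Without overlap, PAX6 was lower in naive than in primed N40 libraries, and NEUROG2 in naive than in primed DSY-c2 ones. The part of these genes' cells in the naive and primed differences was not tested. In bulk RNA, fewer cells of a type and less RNA per cell cannot be told apart. Columns from different sequencing lanes were also unevenly spread: all primed DSY-c2 libraries and naive DSY-c2 replicates 1 and 2 were on 1 lane pair, and naive DSY-c2 replicate 3 and all N40 libraries on another. No.40 replicate 1 was on the pair of the primed DSY-c2 libraries. No.40 replicates 2 and 3 and all DSY127 libraries were on that of N40, so the primed groups were not balanced over lane pairs.

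The 33 carriers together took 0.198% to 0.240% of the counts of naive libraries and 0.209% to 0.262% of those of primed libraries. Their share was 0.306% to 0.348% in morula, 0.302% to 0.421% in the 15 ICM libraries and 0.207% to 0.224% in epiblast. The 3 epiblast libraries thus lay below every morula and ICM library. The naive and primed ranges overlapped over all lines and within DSY-c2, but not within N40. There the share was 0.211%, 0.198% and 0.206% in naive and 0.254%, 0.262% and 0.252% in primed libraries.

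**Figure D1:**
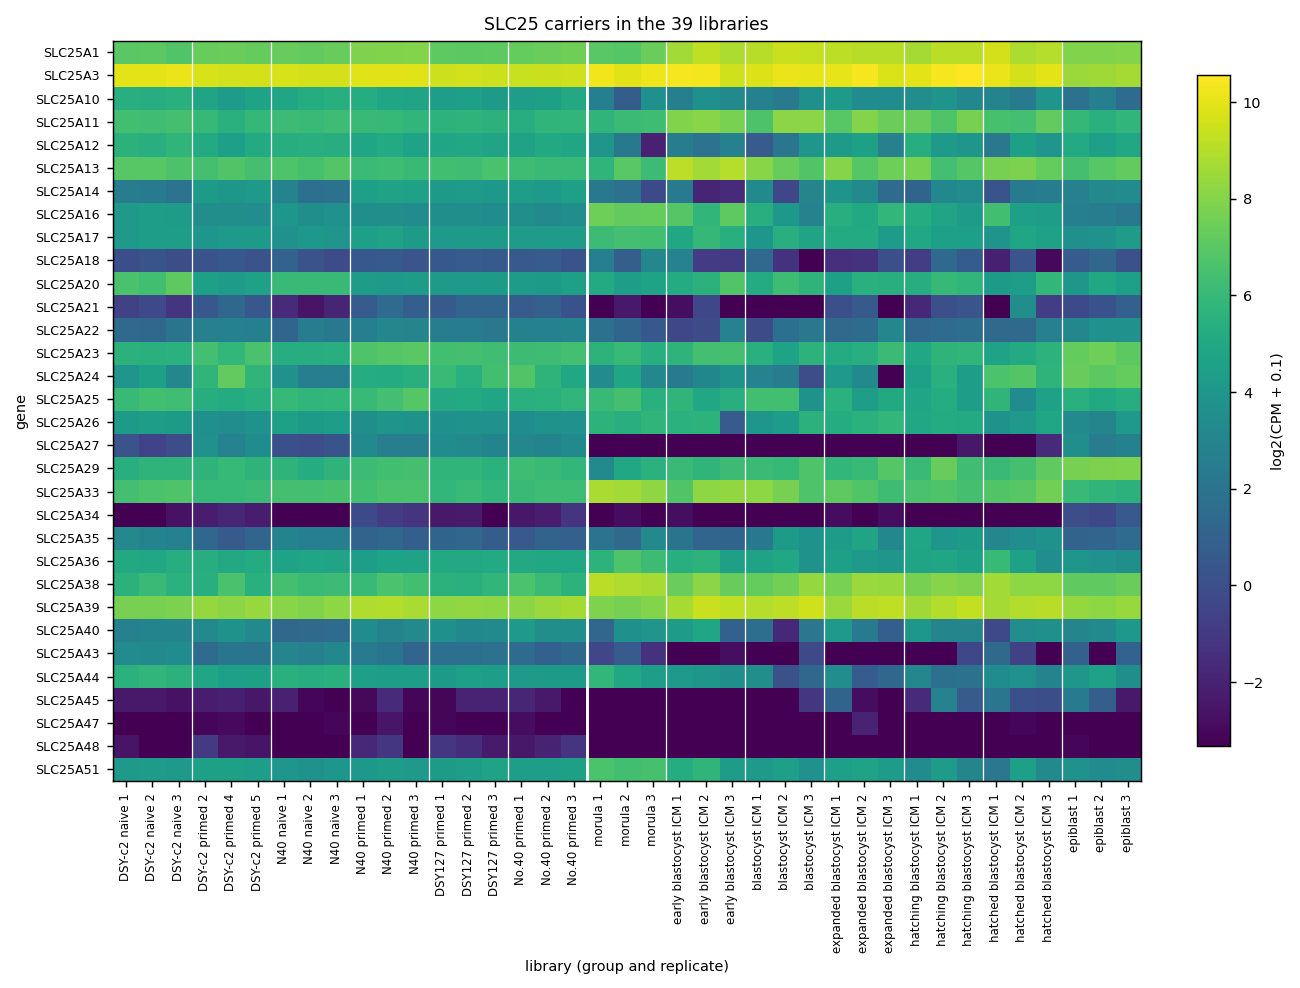
Expression of 32 SLC25 carriers (vertical axis) in 39 libraries (horizontal axis), as log2 of CPM plus a pseudocount of 0.1; white lines separate the groups and the thick line separates ESCs from embryos. SLC25A27 is dark in morula and ICM and lighter in primed cells and epiblast, while SLC25A16 is brightest in morula.

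The first question was whether carriers differ between naive and primed cells of the same line. In DSY-c2, 14 of the 32 carriers tested were higher in naive cells, where 29.6% of all 17957 genes tested were higher, and 9 were lower, where 29.3% of all genes were lower (edgeR quasi-likelihood test, adjusted p under 0.05). In N40, 11 were higher, where 32.3% of all genes were higher, and 14 were lower, where 28.7% of all genes were lower. The median log2 fold change of the carriers was -0.08 in DSY-c2 and -0.17 in N40, and that of all genes tested was 0.03 and 0.09. SLC25A47 did not enter the test, with 0 and 3 counts over the naive and primed DSY-c2 libraries and 1 and 6 over the naive and primed N40 libraries. The carriers as a family did not move one way: 10 were higher in both lines, where 22.9% of all genes were, and 9 were lower in both, where 22% of all genes were. Without primed replicate 4, 14 carriers were higher and 8 lower in naive DSY-c2 cells, and without naive replicate 3, which leaves a single lane pair, 14 were higher and 10 lower. In N40 the 11 higher became 7 or 8 under 12 of the 14 alternatives. After ±, a log2 fold change has its standard error, and a mean of CPM its SD over the 3 libraries of a group.

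Among the carriers that rose in both lines, the clearest was SLC25A20 (ENSCJAG00000003285), the carnitine/acylcarnitine carrier that brings long-chain fatty acids to the matrix for oxidation. It had 94.6, 81.8 and 141 CPM in naive DSY-c2 libraries, against 23.5, 20.3 and 24.4 CPM in primed DSY-c2 libraries. In N40 it had 66.2, 66.3 and 67.7 CPM in naive libraries, against 20.4, 17.7 and 19.3 CPM in primed ones. All 6 naive libraries lay above all 12 primed libraries, which spanned 17.7 to 24.4 CPM. The log2 fold change of naive over primed was 2.25 ± 0.16 in DSY-c2 (edgeR adjusted p = 7.8e-09) and 1.88 ± 0.15 in N40 (edgeR adjusted p = 3.43e-08).

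SLC25A44 (ENSCJAG00000005625), a carrier of branched-chain amino acids, had 46.1, 55.2 and 48.2 CPM in naive DSY-c2 libraries, against 28.9, 22.8 and 23.6 CPM in primed ones. In N40 the values were 44.6, 40.3 and 44.7 CPM in naive and 22.3, 21.4 and 21.99 CPM in primed libraries. The groups did not overlap in either line, with log2 fold changes of 1.02 ± 0.10 in DSY-c2 and 1.06 ± 0.10 in N40 (edgeR adjusted p = 4.94e-07 and 2.65e-07). The effects in the 2 lines differed by -0.03 ± 0.15 (edgeR adjusted p = 0.914).

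SLC25A35 and SLC25A43 are carriers whose substrate is not established, and both rose in naive cells. SLC25A35 had 9.196, 7.69 and 6.72 CPM in naive and 2.51, 1.43 and 2.21 CPM in primed DSY-c2 libraries. Its N40 values were 7.61, 6.24 and 6.27 CPM in naive and 2.11, 2.49 and 1.75 CPM in primed libraries. The log2 fold change of SLC25A35 was 1.97 ± 0.25 in DSY-c2 and 1.74 ± 0.25 in N40 (edgeR adjusted p = 5.3e-06 and 1.5e-05), and no naive library overlapped a primed one. SLC25A43 had 10.3, 9.699 and 10.5 CPM in naive and 2.83, 4.13 and 3.93 CPM in primed DSY-c2 libraries. In N40, SLC25A43 had 7.78, 6.48 and 8.75 CPM in naive and 5.02, 4.07 and 2.17 CPM in primed libraries. The groups again stayed apart, with log2 fold changes of 1.52 ± 0.26 in DSY-c2 and 1.11 ± 0.26 in N40 (edgeR adjusted p = 0.000117 and 0.00149).

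Smaller rises in both lines included carriers of cofactors, SLC25A26, the S-adenosylmethionine carrier, and SLC25A16, which has been linked to coenzyme A. Their log2 fold changes were 0.69 and 0.86 in DSY-c2 and 0.75 and 0.33 in N40. Another 3 serve the malate-aspartate shuttle, which carries reducing equivalents into mitochondria: the aspartate/glutamate carriers SLC25A12 and SLC25A13 and the oxoglutarate carrier SLC25A11. They had log2 fold changes of 0.65, 0.35 and 0.61 in DSY-c2 and 0.49, 0.65 and 0.30 in N40. The N40 calls of SLC25A11 and SLC25A16 were lost under 12 of 14 alternative settings each, with effects down to 0.15 and 0.12 when 1 library was left out, the N40 call of SLC25A12 under 5 of 14 (without primed replicates 1 or 3, without naive replicates 1 or 2, and with no low-count filter), and the DSY-c2 call of SLC25A13 under 6 of 13 (among them without primed replicates 2 or 5 and without naive replicates 1 or 2).

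**Figure D2:**
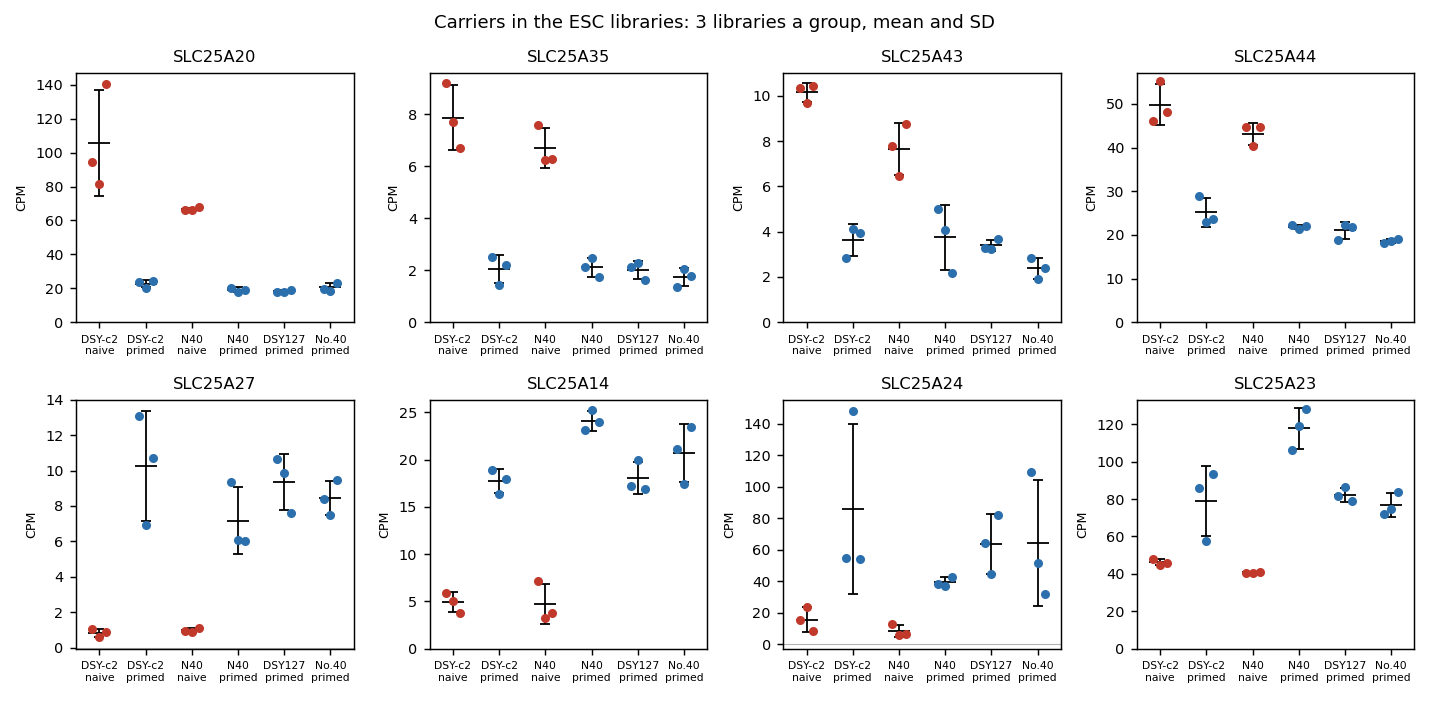
CPM of 8 carriers (vertical axes) in the 6 ESC groups (horizontal axis); points are libraries, and the black line and bar are the mean and SD of 3 libraries. In the upper row the 6 naive libraries (red) lie above the primed libraries (blue) of all groups, and in the lower row below those of their own line.

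Among the carriers that fell in both lines, SLC25A27 and SLC25A14 resemble the uncoupling proteins and are best known from brain. SLC25A27 (ENSCJAG00000012042), also called UCP4, had 1.06, 0.589 and 0.879 CPM in naive DSY-c2 libraries, against 13.1, 6.93 and 10.7 CPM in primed ones. Its N40 values were 0.928, 0.882 and 1.105 CPM in naive and 9.35, 6.099 and 6.04 CPM in primed libraries. No naive library exceeded 1.105 CPM and no primed library of the 4 groups was under 6.04 CPM. The log2 fold change was -3.57 ± 0.29 in DSY-c2 and -2.803 ± 0.28 in N40 (edgeR adjusted p = 4.18e-08 and 2.97e-07). SLC25A14 (ENSCJAG00000002456), also called UCP5, had 5.87, 5.06 and 3.804 CPM in naive and 18.9, 16.4 and 17.96 CPM in primed DSY-c2 libraries. In N40 it had 7.19, 3.23 and 3.71 CPM in naive libraries, against 23.1, 25.2 and 24.02 CPM in primed ones. Here too the naive libraries all lay below the primed ones, with log2 fold changes of -1.82 ± 0.24 and -2.28 ± 0.24 in DSY-c2 and N40 (edgeR adjusted p = 8.24e-06 and 6.78e-07). The neural marker gene NCAM1 was also lower in naive cells in both lines (values above), while PAX6 overlapped in DSY-c2 and NEUROG2 in N40. The part of neural cells in these 2 differences was not tested.

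The calcium-regulated ATP-Mg/phosphate carriers, which set the size of the adenine nucleotide pool of the matrix, did not move together. SLC25A24 (ENSCJAG00000008602) had 15.1, 23.8 and 8.39 CPM in naive DSY-c2 libraries, against 54.6, 148 and 54.4 CPM in primed ones. In N40 it had 12.96, 6.11 and 6.28 CPM in naive and 38.3, 36.8 and 42.9 CPM in primed libraries. Groups did not overlap in either line, but the spread was wide. The highest value came from primed DSY-c2 replicate 4, the library with the most mesoderm RNA and, within DSY-c2, the most primitive endoderm RNA. The log2 fold change was -2.41 ± 0.54 in DSY-c2 (edgeR adjusted p = 0.00154) and -2.14 ± 0.54 in N40 (edgeR adjusted p = 0.00332). Without replicate 4, the DSY-c2 value was -1.77 (edgeR adjusted p = 0.00761). Across the other primed groups SLC25A24 had 64.1, 44.4 and 82.3 CPM in DSY127 and 109, 51.6 and 32.1 CPM in No.40, and within each of these lines the libraries with the most mesoderm RNA (101 and 98.7 CPM in DSY127 replicates 1 and 3, 129.7 CPM in No.40 replicate 1) had the most SLC25A24. The primitive endoderm genes summed to 1274.5, 1132 and 2604 CPM in DSY127 replicates 1 to 3 and 1941, 1024 and 966 CPM in those of No.40. In DSY127 and in No.40 they ranked the libraries in the same order as SLC25A24. In primed N40 they did not, with 1131, 1276.5 and 1202.5 CPM in replicates 1 to 3, where replicate 2 had the least SLC25A24. The mesoderm genes summed to 6.53, 9.29 and 11.5 CPM in these primed N40 libraries. The part of mesoderm or primitive endoderm cells in the naive and primed difference was not tested.

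SLC25A23 (ENSCJAG00000016577), another carrier of this kind, also fell. It had 47.9, 44.96 and 45.6 CPM in naive and 86.1, 57.5 and 93.2 CPM in primed DSY-c2 libraries. In N40 the values were 40.7, 40.6 and 40.8 CPM in naive and 106, 119 and 128 CPM in primed libraries. The naive libraries of both lines lay within a narrow band, whereas primed N40 was well above primed DSY-c2. The log2 fold change was -0.74 ± 0.13 in DSY-c2 and -1.46 ± 0.13 in N40 (edgeR adjusted p = 0.00012 and 8.52e-08).

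SLC25A25, the third, had 68.6, 82.7 and 77.7 CPM in naive DSY-c2 libraries, against 40.3, 37.7 and 42.4 CPM in primed ones, a rise of 0.96 ± 0.16 on the log2 scale (edgeR adjusted p = 7.57e-05). In N40 it had 63.3, 55.5 and 57.4 CPM in naive libraries, against 67.7, 85.4 and 121 CPM in primed ones, a log2 fold change of -0.56 ± 0.16 (edgeR adjusted p = 0.00598). It was the only carrier called in opposite directions in the 2 lines, a pattern that 0.457% of all genes showed with the same signs.

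Of the carriers of amino acids and organic acids, SLC25A1, SLC25A21 and SLC25A22 fell in both lines. SLC25A21, the oxodicarboxylate carrier used in lysine and tryptophan breakdown, was low throughout, with 0.576, 0.749 and 0.317 CPM in naive and 1.31, 2.43 and 1.28 CPM in primed DSY-c2 libraries. In N40 its values were 0.211, 0.0668 and 0.166 CPM in naive and 1.52, 2.82 and 1.67 CPM in primed libraries, again with no overlap. Its log2 fold change was -1.58 ± 0.43 in DSY-c2 and -3.67 ± 0.48 in N40 (edgeR adjusted p = 0.00486 and 5.91e-06). SLC25A22, a glutamate carrier, averaged 2.97 ± 0.814 CPM in naive and 6.48 ± 0.203 CPM in primed DSY-c2 cells, and 4.16 ± 1.73 CPM in naive and 7.55 ± 1.12 CPM in primed N40 cells, with log2 fold changes of -1.09 ± 0.28 and -0.78 ± 0.27 (edgeR adjusted p = 0.00298 and 0.0208). The citrate carrier SLC25A1, which exports citrate for lipid synthesis, averaged 125 ± 11.6 CPM in naive and 164 ± 10.2 CPM in primed DSY-c2 cells. Its fall was modest but exceeded the spread in both lines, at -0.36 ± 0.08 and -0.55 ± 0.08 on the log2 scale (edgeR adjusted p = 0.00077 and 1.19e-05).

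The glutathione carriers SLC25A39 and SLC25A40, which supply the matrix with this antioxidant, fell as well. SLC25A39 averaged 215 ± 8.36 CPM in naive and 316 ± 31.03 CPM in primed DSY-c2 cells, a log2 fold change of -0.52 ± 0.11 (edgeR adjusted p = 0.000797). It averaged 269 ± 25.1 CPM in naive and 469.7 ± 26.1 CPM in primed N40 cells, a log2 fold change of -0.73 ± 0.11 (edgeR adjusted p = 3.22e-05). SLC25A40 had 2.52, 2.63 and 2.73 CPM in naive and 10.6, 7.32 and 9.27 CPM in primed N40 libraries, a log2 fold change of -1.71 ± 0.21 (edgeR adjusted p = 3.42e-06). In DSY-c2 its change was -0.53 ± 0.21 (edgeR adjusted p = 0.0369), and the call was lost without primed replicate 4 (edgeR adjusted p = 0.153), without naive replicate 1 (0.0946) and with the lane pair as a covariate (0.1).

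Several carriers were called in 1 line only. The phosphate carrier SLC25A3, which brings phosphate in for ATP synthesis, had 1018, 1022 and 1153 CPM in naive and 840.5, 767 and 811 CPM in primed DSY-c2 libraries, a log2 fold change of 0.44 ± 0.07 (edgeR adjusted p = 3.12e-05). In N40 it had 855, 816 and 822 CPM in naive and 949, 984 and 936 CPM in primed libraries, at -0.12 ± 0.07 on the log2 scale (edgeR adjusted p = 0.114), a difference that was called lower under 10 of 14 alternatives. SLC25A33, a pyrimidine nucleotide carrier, and SLC25A10, the dicarboxylate carrier, were higher in naive DSY-c2 cells with log2 fold changes of 0.59 and 0.80, and their N40 values of 0.01 and 0.30 did not pass. SLC25A17, a peroxisomal carrier of cofactors, and SLC25A29, a carrier of basic amino acids, were lower in naive N40 cells with -0.50 and -0.68, and their DSY-c2 values of 0.23 and -0.14 did not pass. SLC25A36, the other pyrimidine nucleotide carrier, was called higher in naive N40 cells at 0.26, a call that was lost under 12 of 14 alternatives. SLC25A34 and SLC25A48 had no count in the 3 naive N40 libraries and 120 and 43 counts over the 3 primed ones, which put them at least 38.0-fold and 13.6-fold lower if the naive group is set to a floor of 3 counts. The primed counts of SLC25A48 were 15, 28 and 0, so 1 primed library was at 0 like the naive ones. In DSY-c2, SLC25A34 and SLC25A48 averaged 0.0192 and 0.0213 CPM in naive cells against 0.137 and 0.194 CPM in primed cells, and neither passed in edgeR (adjusted p = 0.0545 and 0.0702). SLC25A34 was called lower there by DESeq2 (adjusted p = 0.0401), and in edgeR with halved counts (0.0479), with the lane covariate (0.0142) and without naive replicate 3 (0.0112), and SLC25A48 without naive replicate 1 (0.0279).

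**Figure D3:**
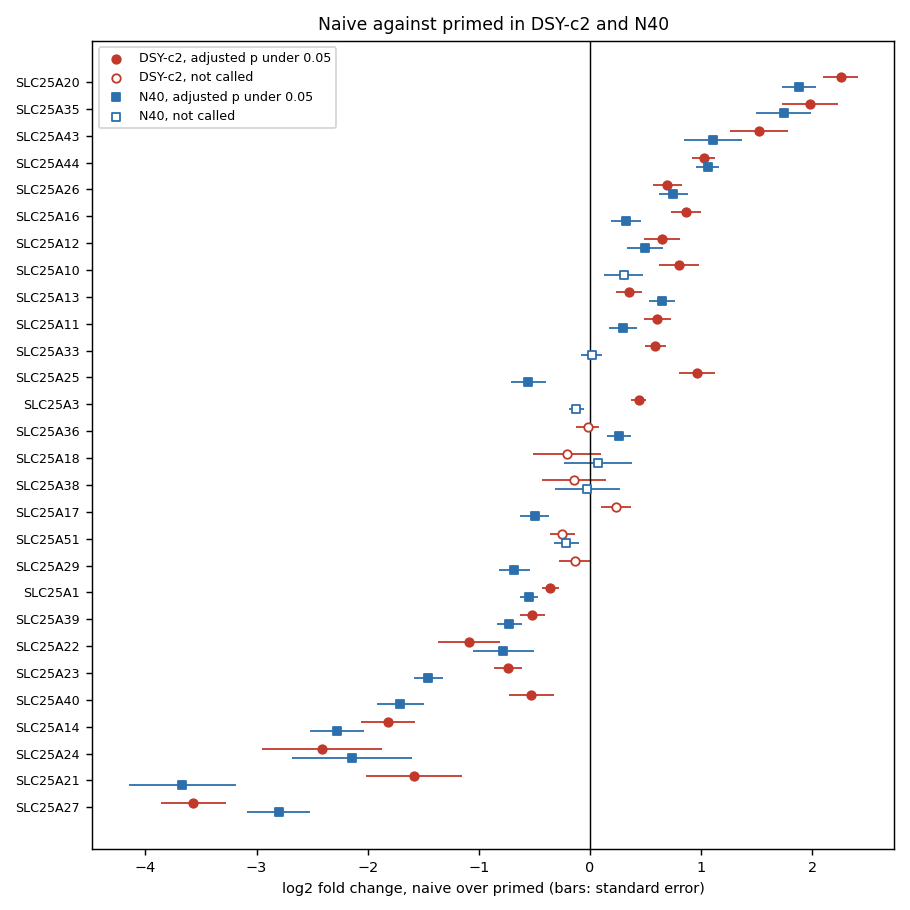
Log2 fold change of naive over primed cells (horizontal axis) for 28 carriers (vertical axis) in DSY-c2 (red circles) and N40 (blue squares), with standard errors; filled symbols have an edgeR adjusted p under 0.05. SLC25A34, SLC25A45, SLC25A47 and SLC25A48, which had few or no counts, are not drawn; SLC25A25 is the carrier with filled symbols on both sides of 0.

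Whether the naive effect differed between the lines was tested as an interaction. The effect was higher in DSY-c2 than in N40 for 7 of 32 carriers, where 6.55% of all genes were, and lower for 0, where 8.57% of all genes were. For the lower direction, 0 carriers had an unadjusted p under 0.05 in edgeR and 0 were called by DESeq2. The 7 were SLC25A25, SLC25A3, SLC25A33, SLC25A40, SLC25A23, SLC25A17 and SLC25A21. The difference in effect was 1.52 ± 0.22 for SLC25A25 (edgeR adjusted p = 0.000481), where the naive levels of the 2 lines were nearer to each other than the primed levels: 76.3 ± 7.15 and 58.8 ± 4.08 CPM in naive DSY-c2 and N40, against 40.1 ± 2.38 and 91.2 ± 26.9 CPM in their primed cells. For SLC25A40 it was 1.18 ± 0.29 (edgeR adjusted p = 0.0133), with naive levels of 7.27 ± 0.608 CPM in DSY-c2 and 2.63 ± 0.108 CPM in N40 and primed levels of 10.7 ± 2.08 CPM in DSY-c2 and 9.05 ± 1.63 CPM in N40. The difference for SLC25A3 was 0.56 ± 0.09 (edgeR adjusted p = 0.00109), for SLC25A33 0.57 ± 0.13 (0.00969), for SLC25A23 0.72 ± 0.18 (0.0142) and for SLC25A17 0.73 ± 0.19 (0.0149). SLC25A21 had a difference of 2.09 ± 0.63 (edgeR adjusted p = 0.0342), which was lost under 7 of 19 alternatives: with only these groups fitted, without primed DSY-c2 replicates 2 or 5, naive DSY-c2 replicate 2, primed N40 replicate 2 or naive N40 replicates 2 or 3. The line and the TgON or TgOFF label cannot be told apart in these differences.

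Differences among the 4 primed groups were assessed with an F test, which called 11 of 32 carriers (34.4%), where 38.1% of all genes were called. SLC25A1 had the largest F (34.3, edgeR adjusted p = 2.08e-05), with 237, 242 and 251 CPM in primed N40, 160.4, 175 and 156 CPM in primed DSY-c2, 138, 133 and 137 CPM in DSY127 and 157, 166 and 185 CPM in No.40. Primed N40 cells thus lay above the 3 other groups without overlap. The same was seen for SLC25A25 (F = 32.2, edgeR adjusted p = 2.77e-05), with 67.7, 85.4 and 121 CPM in primed N40 against 40.3, 37.7 and 42.4 in DSY-c2, 32.5, 35.4 and 28.4 in DSY127 and 44.03, 47.2 and 55.4 in No.40. For SLC25A36 (F = 14.7, edgeR adjusted p = 0.000783) primed N40 was instead the lowest, at 21.1, 26.5 and 24.9 CPM, where the other 9 primed libraries had at least 30.9 CPM. SLC25A3 (F = 11), SLC25A39 (F = 10.9) and SLC25A33 (F = 10.9) completed the 6 with the smallest adjusted p (0.00248, 0.00258 and 0.00256, edgeR). In these 3 as well primed N40 had the highest mean, of 956 ± 24.7, 469.7 ± 26.1 and 91.2 ± 8.61 CPM. The others called were SLC25A23, SLC25A29, SLC25A13, SLC25A44 and SLC25A51, and the call of SLC25A51 was lost under 17 of 19 alternatives. SLC25A44 lost its call without No.40 replicate 1, without DSY-c2 replicate 2, with the lane covariate or with only the primed groups fitted, and SLC25A13 without DSY-c2 replicate 4. SLC25A20, SLC25A27, SLC25A14, SLC25A24 and SLC25A35, which differed between naive and primed cells of both lines, did not pass among the primed groups (edgeR adjusted p = 0.335, 0.294, 0.451, 0.32 and 0.821). Of these, SLC25A20 was called with the lane covariate (edgeR adjusted p = 0.0371) and SLC25A14 with only the primed groups fitted (0.0333).

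In the embryo, 31 carriers were tested, and 19 of them (61.3%) differed over the 7 stages, where 38% of the 16929 genes tested did. SLC25A47 and SLC25A48 did not enter this test. The first step compared the mean of the 5 ICM stages with the morula. In ICM, 5 carriers were higher, where 8.65% of all genes were, and 7 were lower, where 12.2% of all genes were. The higher group was SLC25A1, SLC25A39, SLC25A11, SLC25A29 and SLC25A13, and the lower group SLC25A51, SLC25A17, SLC25A33, SLC25A38, SLC25A16, SLC25A44 and SLC25A36.

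The citrate carrier SLC25A1 (ENSCJAG00000001657) had 399 to 801 CPM with a median of 532 CPM in the 15 ICM libraries, against 127, 121 and 165 CPM in morula. Every ICM library exceeded every morula, and the log2 fold change of ICM over morula was 1.96 ± 0.20 (edgeR adjusted p = 8.68e-06). SLC25A39 (ENSCJAG00000009963) showed the same order, with 353 to 759.8 CPM with a median of 537 CPM in ICM, against 232, 212 and 256 CPM in morula and a log2 fold change of 1.15 ± 0.20 (edgeR adjusted p = 0.000545). SLC25A11 (log2 fold change 1.36) also had no overlap between ICM and morula, as did SLC25A29 (1.496), whereas SLC25A13 (1.33) overlapped. The calls of SLC25A29 and SLC25A13 were lost when a single morula library was left out, replicate 1 for both, and also replicate 2 for SLC25A29 and replicate 3 for SLC25A13.

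Of those that fell, SLC25A51, which carries NAD into mitochondria, had 4.46 to 53.6 CPM with a median of 20.5 CPM in ICM, against 97.4, 81.1 and 92.3 CPM in morula. Its log2 fold change was -2.28 ± 0.35 (edgeR adjusted p = 0.000246), with no overlap. SLC25A16 had 6.896 to 139 CPM with a median of 38.05 CPM in ICM, against 178, 147 and 155 CPM in morula, at -1.96 ± 0.40 on the log2 scale (edgeR adjusted p = 0.00241). Its ICM values spanned a wide range, with 2 early blastocyst libraries at 121 and 139 CPM near the morula and most later ones well below. SLC25A17 had 14.5 to 59.6 CPM with a median of 29.3 CPM in ICM, against 72.1, 84.7 and 80.9 CPM in morula (-1.45 ± 0.27, edgeR adjusted p = 0.00128). SLC25A38, a glycine carrier needed for heme synthesis, had 155 to 398 CPM with a median of 265 CPM in ICM, against 564, 482 and 426 CPM in morula (-0.98 ± 0.20, edgeR adjusted p = 0.00192). For both of these genes each morula was above each ICM library. SLC25A33 had 76.04 to 317 CPM with a median of 112 CPM in ICM, against 438, 391 and 307 CPM in morula (-1.37 ± 0.27, edgeR adjusted p = 0.00181), and here 1 ICM library, at 317 CPM, reached the morula range. SLC25A44 and SLC25A36 fell by 2.36 and 1.49 on the log2 scale, and the call was lost without morula replicate 1 for SLC25A44 and without morula replicate 2 for SLC25A36. SLC25A45, a carrier whose substrate is less well established, had no count in morula and 834 counts over the ICM libraries, at least 60.8-fold higher if the morula group is set to the same floor of 3 counts, but was at 0 in 6 ICM libraries and was not called by edgeR (adjusted p = 1), whereas DESeq2 called it (adjusted p = 0.0183). Without the hatched ICM library replicate 1, the counts stayed at 5 higher and 7 lower.

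Among the 5 ICM stages, edgeR called 0 of 31 carriers, where 0.295% of all genes were called. At an unadjusted p under 0.05 there were 9, and DESeq2 called 5: SLC25A13, SLC25A16, SLC25A24, SLC25A33 and SLC25A35. SLC25A24 averaged 8.95 ± 4.31, 4.5 ± 3.25, 9.001 ± 8.75, 29.2 ± 12.8 and 88.6 ± 31.9 CPM from early to hatched ICM (edgeR adjusted p = 0.17). SLC25A13 averaged 493 ± 92.9, 182 ± 83.5, 185 ± 69.5, 139.7 ± 67.3 and 198 ± 37.2 CPM over the same stages (edgeR adjusted p = 0.106). SLC25A35 had 2.74 ± 0.987, 12.5 ± 6.95, 18.5 ± 9.103, 21.2 ± 7.03 and 11.1 ± 2.54 CPM (edgeR adjusted p = 0.166). Without expanded ICM replicate 3, edgeR called SLC25A24 (adjusted p = 0.0396).

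**Figure D4:**
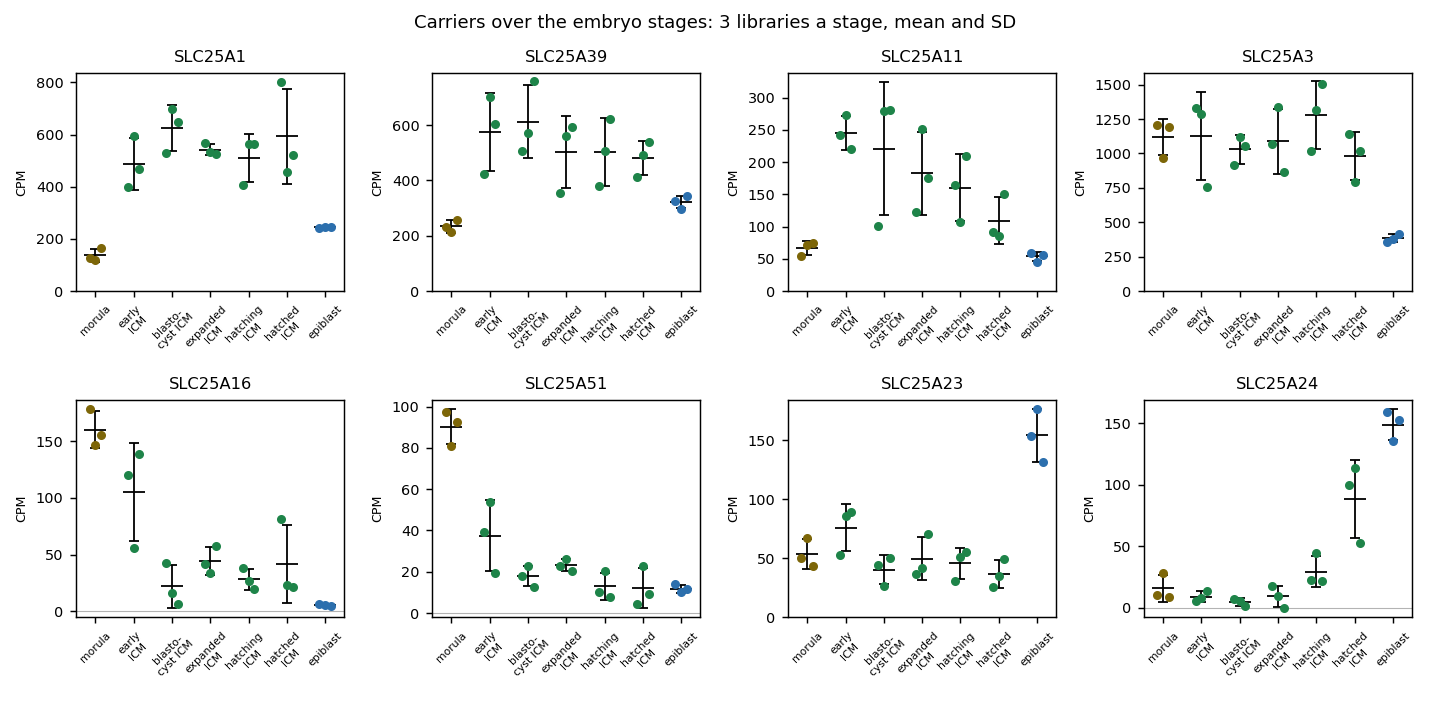
CPM of 8 carriers (vertical axes) over the 7 embryo stages (horizontal axis); points are libraries, and the black line and bar are the mean and SD of 3 libraries. SLC25A1, SLC25A39 and SLC25A11 are higher in ICM than in morula and epiblast, SLC25A3 is lowest in epiblast, SLC25A16 and SLC25A51 are highest in morula, and SLC25A23 and SLC25A24 are highest in epiblast.

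The last comparison set the postimplantation epiblast against the mean of the 5 ICM stages. In epiblast 7 of 31 carriers were higher, where 26.1% of all genes were, and 10 were lower, where 18.7% of all genes were. The median log2 fold change was -0.69 for the carriers and 0.20 for all genes tested. With the size factors of DESeq2 in the same fit, the median of all genes moved to 0.44, a shift of 0.24, and 8 carriers were higher and 8 lower. The log2 fold changes below are those of the TMM scaling, in which 0.20 is the middle of all genes. The epiblast libraries also held 1493 to 1704 CPM of fibroblast marker genes, 101 to 105 CPM of mesoderm genes and 78.1 to 107 CPM of neural genes, where the ICM libraries held 0 to 31.7, 0.0446 to 10.5 and 0 to 19.6 CPM. The part of such cells in the epiblast values was not tested.

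SLC25A27, SLC25A24, SLC25A23 and SLC25A22, which were all lower in naive than in primed cells, were among the 7 carriers higher in epiblast. SLC25A27 had 11.7, 5.59 and 6.71 CPM in epiblast and was at 0 in 13 of 15 ICM libraries, with 14 counts over all of them (log2 fold change 10.001 ± 1.38, edgeR adjusted p = 0.00034). SLC25A24 had 159, 135 and 153 CPM in epiblast, against 0 to 113 CPM with a median of 13.6 CPM in ICM. The hatched ICM libraries, at 99.6, 113 and 52.7 CPM, came nearest to the epiblast, and the log2 fold change was 3.23 ± 0.71 (edgeR adjusted p = 0.00141). SLC25A23 had 154, 177 and 132 CPM in epiblast, against 25.7 to 88.96 CPM with a median of 49.3 CPM in ICM, with no overlap and a log2 fold change of 1.67 ± 0.23 (edgeR adjusted p = 3.52e-05). SLC25A29 had 209, 224 and 231 CPM in epiblast, against 53.6 to 164 CPM with a median of 70.6 CPM in ICM (1.38 ± 0.33, edgeR adjusted p = 0.00263). SLC25A22 (log2 fold change 1.77) was also higher, a call lost under 7 of 25 alternatives, the removal of any 1 epiblast library among them. SLC25A34 had 0.883, 0.694 and 1.37 CPM in epiblast and 6 counts over the ICM libraries (edgeR adjusted p = 0.000245), and DESeq2 did not call it (adjusted p = 0.074). SLC25A43 was called higher (edgeR adjusted p = 0.0415) on values of 1.82, 0 and 1.94 CPM in epiblast and 0 to 2.64 CPM in ICM, which overlap, and the call was lost under 10 of 25 alternatives, among them without epiblast replicate 1 or 3.

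Of the 10 carriers that fell in epiblast, SLC25A3 had the smallest adjusted p. It had 357, 378 and 417 CPM in epiblast, against 756 to 1502 CPM with a median of 1065 CPM in ICM, a log2 fold change of -1.52 ± 0.19 (edgeR adjusted p = 1.25e-05). The lowest ICM library was thus well above the highest epiblast library. SLC25A1 had 241, 246 and 248 CPM in epiblast, against 399 to 801 CPM in ICM (-1.18 ± 0.19, edgeR adjusted p = 0.000118). SLC25A11 had 59.4, 45.3 and 56.7 CPM in epiblast, against 85.9 to 281 CPM in ICM (-1.72 ± 0.30, edgeR adjusted p = 0.000245). These carriers of citrate and oxoglutarate also had no overlap between the groups. SLC25A16, SLC25A33 and SLC25A39 fell by 2.94, 1.43 and 0.73 on the log2 scale without overlap. SLC25A35, SLC25A17 and SLC25A38 fell by 2.204, 0.95 and 0.76 with overlapping libraries, and the calls of SLC25A17 and SLC25A38 were lost with the size factors of DESeq2 (edgeR adjusted p = 0.081 and 0.0621) and without epiblast replicates 1 or 2. The call of SLC25A39 was lost without epiblast replicate 2 (edgeR adjusted p = 0.0564). Without the hatched ICM library replicate 1, 7 carriers were higher and 10 lower.

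The naive to primed and ICM to epiblast comparisons were fitted in separate sets of libraries and were set side by side without a test. Of the 9 carriers lower in naive cells of both lines, 4 were higher in epiblast than in ICM (SLC25A22, SLC25A23, SLC25A24 and SLC25A27) and 2 were lower in epiblast (SLC25A1 and SLC25A39). Over all genes lower in both lines and tested in embryos, 61.8% were higher and 2.71% lower in epiblast. Of the 10 carriers higher in naive cells of both lines, 4 were lower in epiblast than in ICM, among them SLC25A11, SLC25A16 and SLC25A35, and 1 was called higher (SLC25A43). Over all genes higher in both lines and tested in embryos, 38.3% were lower and 7.14% higher in epiblast. SLC25A20, the carrier with the largest rise in naive cells, had 16.02, 32.2 and 22.9 CPM in epiblast and 18.8 to 111 CPM with a median of 44.04 CPM in ICM, and the difference did not pass (-0.99 ± 0.39, edgeR adjusted p = 0.0504), though it did under 8 of 25 alternatives. SLC25A14 had 6.41, 9.23 and 10.2 CPM in epiblast and 0.166 to 14.6 CPM in ICM, so the fall seen in naive cells had no counterpart past the threshold in the embryo (edgeR adjusted p = 0.489). SLC25A44 was 49.8 ± 4.74 CPM in naive DSY-c2 cells, and had 15.9, 24.2 and 12.02 CPM in epiblast and 0.978 to 17.7 CPM in ICM. Its difference between epiblast and ICM did not pass (1.23 ± 0.59, edgeR adjusted p = 0.0979), but it was called higher in epiblast under 5 alternatives, among them the replicate block (0.0205), DESeq2 (0.0372) and its size factors (0.0424).

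Balance between carriers of the same substrate was described by each gene's share of their summed CPM, which is read across groups and not between genes because CPM is not corrected for length. How reads that match more than a single gene were counted is not given in the sources used here, so the split between similar carriers is uncertain to that extent. A further ATP-Mg/phosphate carrier, SLC25A41, was not matched to a gene ID, so the shares for this substrate leave it out. Among the ATP-Mg/phosphate carriers SLC25A23, SLC25A24 and SLC25A25, the share of SLC25A24 was 11.2% ± 4.67 in naive and 39.9% ± 18.2 in primed DSY-c2 cells (SD, n = 3). In N40 it was 7.69% ± 2.94 in naive and 15.99% ± 1.77 in primed cells. The share of SLC25A25 was 55.2% ± 3.49 in naive and 20.02% ± 3.92 in primed DSY-c2 cells, and 54.5% ± 0.424 in naive and 36.2% ± 4.78 in primed N40 cells. In naive cells of both lines SLC25A24 thus held a smaller and SLC25A25 a larger share, although the level of SLC25A25 itself was lower in naive than in primed N40 cells. Over the embryo stages the share of SLC25A24 was 10.7% ± 4.11 in morula, 6.82% ± 2.46, 3.85% ± 2.19, 10.1% ± 9.02, 27.3% ± 5.59 and 56.2% ± 14.9 from early to hatched ICM, and 43.5% ± 4.11 in epiblast. The share of SLC25A25 was 49.2% ± 3.31 in morula and 11.7% ± 1.47 in epiblast.

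**Figure D5:**
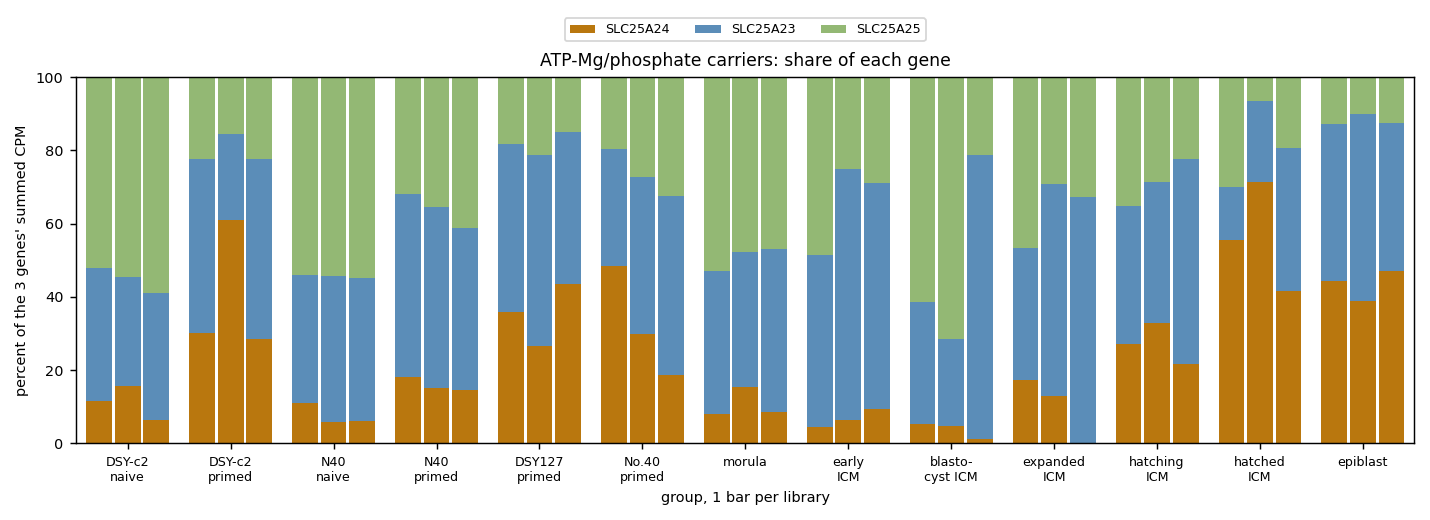
Share of SLC25A24, SLC25A23 and SLC25A25 in the summed CPM of the 3 genes (vertical axis, percent) in each of 39 libraries, grouped along the horizontal axis. SLC25A24 takes a small share in naive cells, morula and the first 3 ICM stages and a larger one in hatched ICM and epiblast.

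Of the 2 aspartate/glutamate carriers, SLC25A12 held 25.2% to 30.1% of the summed CPM as a mean in all 6 ESC groups, naive and primed. Its share was 8.495% ± 11.6 in morula, 1.09% ± 0.178, 5.11% ± 6.17, 8.96% ± 6.76, 15.1% ± 2.93 and 6.68% ± 3.99 from early to hatched ICM, and 20.5% ± 7.38 in epiblast. In early ICM, where the share was lowest, SLC25A13 had 567, 389 and 522 CPM. The pyrimidine nucleotide carrier SLC25A36 held 26.7% ± 1.93 in naive and 35.7% ± 2.15 in primed DSY-c2 cells, against SLC25A33. In N40 its share was 23.9% ± 1.299 in naive and 20.9% ± 0.505 in primed cells. SLC25A40 made up at most 3.97% of the glutathione pair as a mean in any group. The share of SLC25A18 in the glutamate pair with SLC25A22 was 64.9% ± 21.5 in morula and 12.5% ± 4.67 in epiblast, on low counts with wide SDs.

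Genes that work beside the carriers were taken from 4 lists, whose counts stand beside the shares of all genes called. The list of other mitochondrial transporters also named family members whose symbols do not begin with SLC25A, the UCP and MTCH genes. Of 23 other mitochondrial transporters tested, 14 were higher and 4 lower in naive DSY-c2 cells, against 29.6% and 29.3% of all genes. In naive N40 cells 11 were higher and 6 lower, against 32.3% and 28.7% of all genes. MPC1, a subunit of the pyruvate carrier, averaged 448 ± 27.5 CPM in naive and 107 ± 19.8 CPM in primed DSY-c2 cells (2.11 ± 0.14, edgeR adjusted p = 6.3e-09), and 220.3 ± 16.9 CPM in naive and 36.1 ± 1.77 CPM in primed N40 cells (2.69 ± 0.15, edgeR adjusted p = 4.9e-10). UCP3, an uncoupling protein, was lower in naive cells, with log2 fold changes of -3.803 ± 0.44 in DSY-c2 and -4.39 ± 0.45 in N40 (edgeR adjusted p = 2.78e-06 and 5.89e-07). In epiblast 4 of these 23 transporters were higher, where 26.1% of all genes were, and 10 lower, where 18.7% were, with MPC1 at 12.2 ± 2.36 CPM in epiblast and 204 ± 135 CPM in ICM (SD, 15 ICM libraries; -3.901 ± 0.51, edgeR adjusted p = 1.88e-05). In ICM 5 were higher than in morula, where 8.65% of all genes were, and 0 lower, where 12.2% were.

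Of 13 genes listed for the import of carriers, which were TIM and TOM genes and AGK, only 7 were measured and tested. Of these 7, 4 were higher in naive DSY-c2 cells and 3 in naive N40 cells, where 29.6% and 32.3% of all genes were. In either line 0 were lower, where 29.3% and 28.7% of all genes were. In epiblast 5 of the 7 were lower than in ICM, where 18.7% of all genes were, and 0 higher, where 26.1% were. Those lower included TOMM40, the import pore, at -2.03 ± 0.26 (edgeR adjusted p = 1.87e-05). Of 26 enzymes that use the carried metabolites, 11 were higher and 5 lower in naive DSY-c2 cells, and 12 were higher and 8 lower in naive N40 cells, where 29.6% and 29.3%, and 32.3% and 28.7%, of all genes were. CPT1A, which makes the acylcarnitines that SLC25A20 carries, averaged 96.3 ± 16.7 CPM in naive and 4.303 ± 0.0755 CPM in primed DSY-c2 cells. In N40 CPT1A averaged 23.7 ± 1.16 CPM in naive and 0.575 ± 0.1804 CPM in primed cells, and both differences passed (edgeR adjusted p = 6.96e-06 and 1.98e-06). CPT2, which acts after the carrier, was lower in naive cells, with log2 fold changes of -0.61 ± 0.14 in DSY-c2 and -0.68 ± 0.14 in N40 (edgeR adjusted p = 0.00117 and 0.000421), so the genes of carnitine-linked import did not all move one way. In epiblast 5 of the enzymes were higher than in ICM, against 26.1% of all genes, and 9 lower, against 18.7%. Of 13 genes of mitochondrial content and biogenesis, 9 were higher and 2 lower in naive DSY-c2 cells, against 29.6% and 29.3% of all genes. In naive N40 cells 11 were higher and 1 lower, against 32.3% and 28.7% of all genes, with ESRRA, a nuclear receptor that drives mitochondrial genes, at 1.72 ± 0.12 in DSY-c2 and 0.96 ± 0.12 in N40 on the log2 scale (edgeR adjusted p = 1.07e-08 and 3.54e-06). In epiblast 2 of these genes were higher than in ICM, against 26.1% of all genes, and 5 lower, against 18.7%.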

How the data were processed

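RNA was extracted with RNeasy and made into stranded TruSeq libraries from poly(A)+ RNA, per the labels' protocols. Per the submitters' processing notes, the authors used Trim Galore 0.4.0, STAR 2.5.3a and featureCounts 1.5.2 (no genome build, annotation or counting option is given in the sources used here). They deposited raw counts per gene ID, with 2 lane columns per library, which were summed. Another 6 columns that belong to no sample were not used. Among counts of 1 to 49, 65.0% were even, so mates of a pair may be counted separately.

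The quasi-likelihood test of edgeR 4.0.16 in R 4.3.3 was fitted once to the ESC and once to the embryo libraries (filterByExpr, TMM, robust fit), with Benjamini-Hochberg adjustment over all genes tested and calls at an adjusted p under 0.05. Each fit was scaled over its own libraries, so a small log2 fold change can differ from the ratio of the CPM values, even in sign. With the size factors of DESeq2, the median log2 fold change of all genes moved from 0.09 to 0.01 in N40 and from 0.03 to -0.03 in DSY-c2. Where a whole group had no count, folds were bounded with a floor of 3 counts for that group, which covers counting error only. Same-numbered libraries were not paired: their deviations correlated at -0.092 to -0.031 in N40 and at -0.178 to 0.128 in embryos. The code was tested on simulated data. Alternatives were DESeq2 1.42.0 as the test and its size factors, other low-count filters, halved counts, fits of only the groups compared, a lane covariate, a replicate block and each library left out; the lane covariate was added after the data were seen. The members, lists and naming rules were chosen with earlier results of these data known. Carriers called in both lines with a 2-fold change in either, and the 6 smallest adjusted p of the other comparisons, were given with full values. Among the members, 1 carrier entered all fits and counts and is not reported by name here.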

Additional observations from a re-analysis of the deposited data

Results flagged for a closer look

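The effect of the naive state differed between DSY-c2 and N40 for 7 carriers, by a test of the difference itself (edgeR, adjusted p under 0.05). The DSY-c2 effect minus the N40 effect was 1.52 for SLC25A25, 0.56 for SLC25A3, 0.57 for SLC25A33, 1.18 for SLC25A40, 0.72 for SLC25A23, 0.73 for SLC25A17 and 2.09 for SLC25A21 on the log2 scale. Primed N40 cells had the highest mean of the 4 primed groups for each of these carriers except SLC25A40. All 7 had lower means in naive N40 than in naive DSY-c2 cells. No group was large enough for a search for outlying libraries.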

How the results depend on the processing

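Settings other than leaving out a library moved 2 counts of carriers past 1.5 times. Carriers higher in naive N40 cells numbered 7 with no low-count filter, against 11, and carriers called among the 5 ICM stages numbered 5 with DESeq2, against 0. All genes called among the ICM stages, 50 in the fit reported, numbered 93 with no low-count filter, 88 with a filter of 1 CPM in 3 libraries, 1150 with DESeq2, 139 with halved counts, 5 with only the groups compared and 11 with a replicate block. The cause of these shifts was not tested.

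With 1 library left out, the higher and lower carriers numbered 13 to 14 and 8 to 10 in DSY-c2, 7 to 8 and 14 to 16 in N40, 5 to 8 and 7 to 13 in epiblast against ICM, and 3 to 5 and 6 to 8 in ICM against morula. Carriers with a higher naive effect in DSY-c2 numbered 6 to 10, those called among primed groups 10 to 13, among ICM stages 0 to 1 and over 7 stages 17 to 20. The range of all genes called was 2249 to 3896 in ICM against morula, lowest without morula replicate 1, and 12 to 171 among ICM stages, lowest without hatched ICM replicate 1 and highest without blastocyst ICM replicate 3. Of the calls reported, 21 of 23 held under every alternative in DSY-c2, 21 of 25 in N40, 6 of 7 for the difference of the lines, 8 of 11 among primed groups, 11 of 17 in epiblast and 8 of 12 in ICM against morula.

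Same-numbered libraries share only a number. A fit of the N40 groups with the number as a block gave 8 higher and 14 lower carriers, and the embryo block gave 8 higher and 11 lower in epiblast and 5 higher and 7 lower in ICM against morula. The DSY-c2 groups share only 1 number and had no block. With the lane pair as a covariate, a setting chosen after the data were seen, the counts were 14 higher and 9 lower in DSY-c2. Depth limits what can be said of SLC25A34, SLC25A45, SLC25A47 and SLC25A48, which had few or no counts in whole groups.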
